A study of Homo sapiens with 12 samples.

Results

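Genes of protein folding in the endoplasmic reticulum (ER) and of the unfolded protein response were followed across HT-29 and SW480 cells, which are established lines of human colorectal adenocarcinoma. The set named 35 genes by symbol, and each was read from the transcript cluster of the array that carries its symbol alone, or from the cluster with the highest mean where a gene has several. This gave values for 34 of the 35 genes, out of 22465 genes read in this way. HSP90B1 was left without a value because its cluster carries a second symbol. The genes were picked by function, though with earlier results of these data known.

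The cells of both lines were either kept in medium without folic acid (FA, 0 ng/mL) or given 10000 ng/mL FA, and RNA was taken after 72 h. Each of the 4 groups has 3 Human Transcriptome Array 2.0 chips, 12 arrays in all. FA was dissolved in NaOH, and since the array labels name no solvent control, an effect of FA and one of NaOH cannot be told apart. The replicates are called biological, but separate cultures are not stated, so that p-values reflect only how far these samples spread, which may be technical. The arrays read RNA of the whole culture, in which fewer cells expressing a gene and less RNA per cell cannot be told apart.

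Proteins that enter the secretory pathway are folded in the ER by chaperones of the HSP70 family, by lectin chaperones that hold on to newly added sugars, and by enzymes that form disulfide bonds. Proteins that fail are drawn back across the membrane and destroyed, a route called ER-associated degradation (ERAD). When unfolded protein builds up, the sensors IRE1, PERK and ATF6 switch on the unfolded protein response, which raises the folding and degradation genes. Intestinal secretory cells carry a large ER and depend on the IRE1 and XBP1 branch of this response.

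Values are log2 signals per transcript cluster as deposited. Differences were tested with limma over the 4 groups, with Benjamini-Hochberg adjustment over 67528 clusters, and a gene is said to be higher or lower only at an adjusted p under 0.05. One array stood apart, HT-29 at 0 ng/mL FA replicate 3. Its median over clusters was 4.75, against 4.30 to 4.40 on the other HT-29 arrays, and its SD was 1.86, against 2.17 to 2.20. The genes of the ER set lay mostly low on it. They deviated from the mean of the other untreated HT-29 arrays by a median of -0.42, 26 downwards and 8 upwards, from -1.76 for XBP1 to 0.24, while the median over all clusters was 0.16. The main FA results in HT-29 are therefore given with and without it, and differences between the untreated lines without it for some genes only. Of the 34 genes, 6 had equal values on all 3 arrays of some group, as did 23.2% of all clusters. Epithelial markers averaged 10.2 to 10.9 per array in HT-29 and 8.35 to 8.51 in SW480. Of these 11 genes 7 were lower in untreated SW480, against 18.0% of all clusters, and 2 were higher, against 24.7%. The widest difference was that of the intestinal keratin KRT20, at a mean of 13.2 in untreated HT-29 and 3.78 in untreated SW480. KRT19 went the other way (11.0 and 13.2), and CDX1 (4.11 and 3.76) and CDX2 (4.49 and 5.53) were low in both lines. Group means of all 7 fibroblast markers were at most 5.03 and those of all 5 endothelial markers at most 4.49. The leukocyte list had 2 of 6 genes above 6 in HT-29, LYZ and CD68, and PTPRC, its defining gene, was at most 3.81 in every group.

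**Figure D1:**
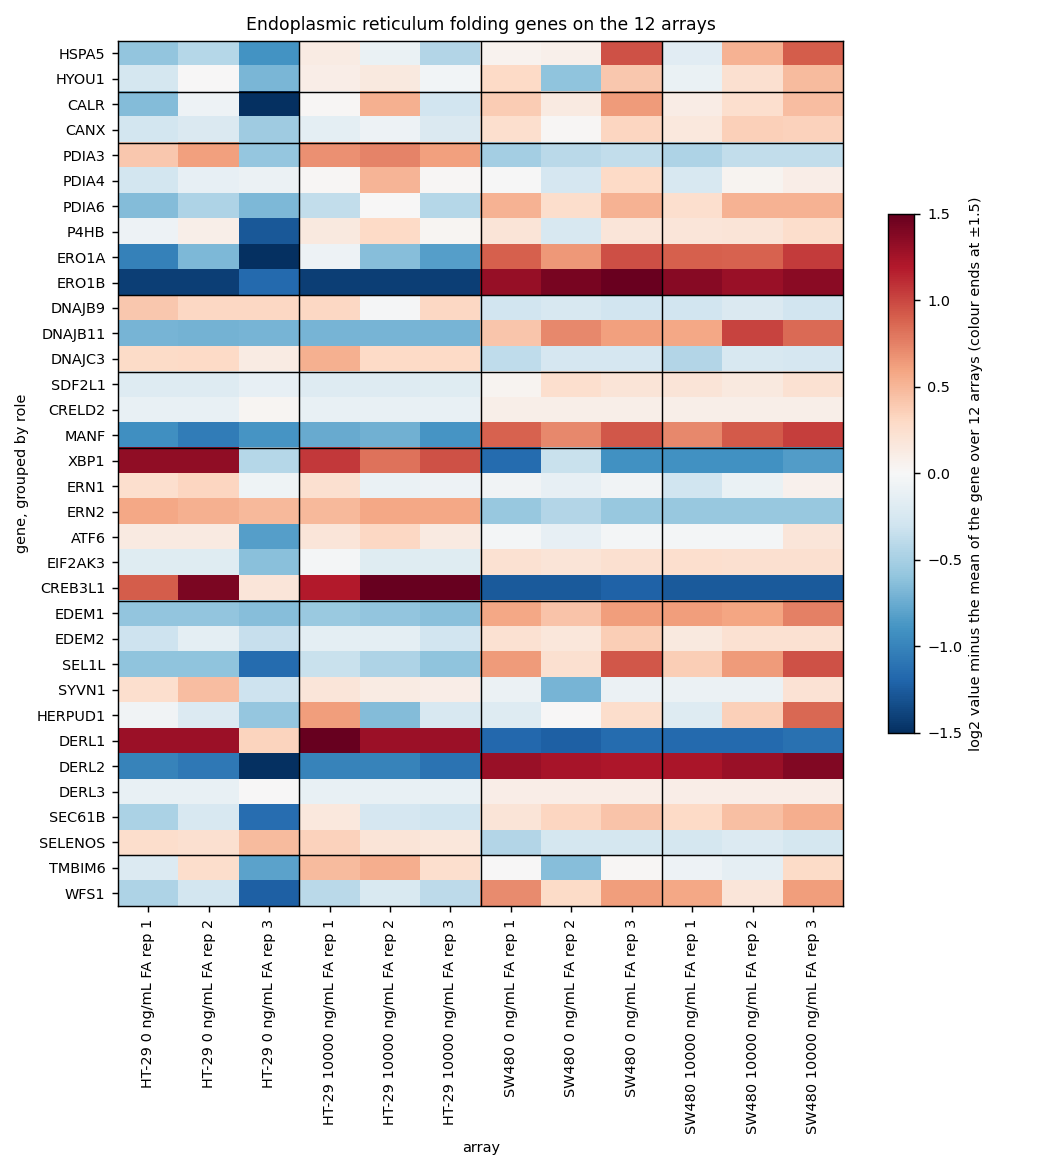
Heat map of the 34 genes (rows, grouped by role) on the 12 arrays (columns, 3 per group). Colour gives the log2 value minus the mean of the gene over the 12 arrays, and the colour scale ends at ±1.5. ERO1B, MANF and DERL2 are red across SW480 and blue across HT-29, DERL1 and CREB3L1 show the reverse, and the untreated HT-29 replicate 3 column is lower than the mean of the other untreated HT-29 columns in 26 of 34 rows.

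The unfolded protein response acts on its genes through short promoter elements, known docking sequences for ATF6 and XBP1. They are shown to mark which genes of the set carry an exact copy. Only exact matches were counted, so a gene without a match may still hold a form with other letters. RefSeq promoters (GRCh38.p14, 250 bases before to 50 after a gene start) matched 30 of the 34 genes in 37 windows. DERL1, DERL3, ERN2 and PDIA3 have no entry in the table. The ER stress response element (ERSE) was searched on both strands as CCAAT followed by CCACG after a gap of 9 bases. It was found in 7 of the 30 genes (23.3%) and in 27 of all 35116 promoters (0.0769%). Its second form, ERSE-II, was searched as ATTGG and CCACG with 1 base between them, and was found in HERPUD1, HYOU1 and SDF2L1 (10% of the 30) and in 0.0541% of all promoters. TGACGTGG, the unfolded protein response element, was found in HYOU1 (3.33%) and in 0.729% of all promoters. One of the ERSE-II matches of HYOU1 overlaps this element. The sites below are written in the direction of the gene, with the searched letters in capitals, and a site on the opposite strand reads as the reverse complement.
HSPA5: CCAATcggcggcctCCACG
XBP1: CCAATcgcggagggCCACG
PDIA6: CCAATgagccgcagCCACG
CANX: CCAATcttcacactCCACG
CALR: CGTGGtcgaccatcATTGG
CRELD2: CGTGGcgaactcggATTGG
ERO1B: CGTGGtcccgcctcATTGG
HERPUD1: ATTGGgCCACG
HYOU1: CGTGGtCCAAT
SDF2L1: CGTGGaCCAAT
The HSPA5, XBP1, PDIA6 and CANX sites run with the gene, and the CALR, CRELD2 and ERO1B sites against it. Apart from the fixed letters the ERSE gaps differ from gene to gene.

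Longer stretches are given for 3 genes whose values part below: HSPA5, the ER HSP70 chaperone (chr9:125241344-125241493, minus strand), XBP1, the transcription factor of the IRE1 branch (chr22:28800570-28800719, minus strand), and ERO1B, an oxidase that recharges disulfide enzymes (chr1:236282059-236282208, minus strand). All are GRCh38.p14, 150 bases long and written in the direction of the gene, with the ERSE letters in capitals.
HSPA5: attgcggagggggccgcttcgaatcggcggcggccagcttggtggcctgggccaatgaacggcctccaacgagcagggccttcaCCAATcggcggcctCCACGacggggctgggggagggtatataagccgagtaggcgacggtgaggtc
XBP1: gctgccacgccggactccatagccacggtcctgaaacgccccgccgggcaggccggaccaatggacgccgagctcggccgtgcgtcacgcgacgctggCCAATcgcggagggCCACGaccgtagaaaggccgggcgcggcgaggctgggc
ERO1B: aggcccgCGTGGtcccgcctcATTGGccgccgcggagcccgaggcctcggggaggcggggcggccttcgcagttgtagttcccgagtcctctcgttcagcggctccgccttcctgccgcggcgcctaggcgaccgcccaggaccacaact
Counted from the gene start, the first base of the matched ERSE is at -66 in HSPA5, at -52 in XBP1 and at -243 in ERO1B. The HSPA5 stretch also holds CCAAT followed after 9 bases by CCAAC instead of CCACG, which was not counted.

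The 2 lines differed in most of the set. In untreated cells 18 of the 34 genes were higher in SW480, against 24.7% of all clusters, 7 were lower, against 18.0%, and 9 did not pass the test. The median log2 difference was 0.34 over the set and 0.01 over all clusters. Without untreated HT-29 replicate 3, 17 were higher and 10 lower in untreated SW480, against 33.6% and 20.3% of all clusters. The medians were then 0.21 and 0.095. With 10000 ng/mL FA 15 were higher (26.0% of all clusters), 8 were lower (15.1%) and 11 did not pass, with medians of 0.20 and 0.07. Among clusters with 1 symbol, tested alone, 38.4% were higher and 19.4% lower in untreated SW480, and 38.6% and 18.0% with FA. The split depended on the scaling. Another quantile normalization gave 13 higher and 11 lower in untreated cells, against 23.4% and 22.6% of all clusters, and 7 higher and 11 lower with FA, against 21.8% and 22%. Centring each array on its median gave 9 higher and 8 lower with FA, against 21.2% and 20.1%. Under these scalings the counts with FA thus lay close to the share of all clusters on the higher side. Array weights, whose estimate did not converge, gave untreated HT-29 replicate 1 a weight of 14.8, against 0.77 for replicate 2 and 0.033 for replicate 3. The untreated HT-29 mean in that fit thus rests largely on 1 array. More clusters passed in it, 39.6% higher and 29.3% lower in untreated SW480. The comparisons at 0 and at 10000 ng/mL FA use different arrays. In both, 15 genes were higher, 7 were lower and 0 went opposite ways, which is 64.7% of the set with the same call, against 34% of all clusters. Clusters with 1 symbol, from which the set was read, pass more often than all clusters, and their share with the same call was not computed. In every alternative fit, scaling and left-out array, the fold criterion of the study aside, 13 of these 22 kept their call in both comparisons, namely DERL2, DNAJB11, EDEM1, ERO1A, ERO1B, MANF and SEL1L on the higher side and CREB3L1, DERL1, DNAJB9, DNAJC3, ERN2 and SELENOS on the lower side. The share of all clusters that kept their call in this way was not computed, so the 13 cannot be set against it.

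**Figure D2:**
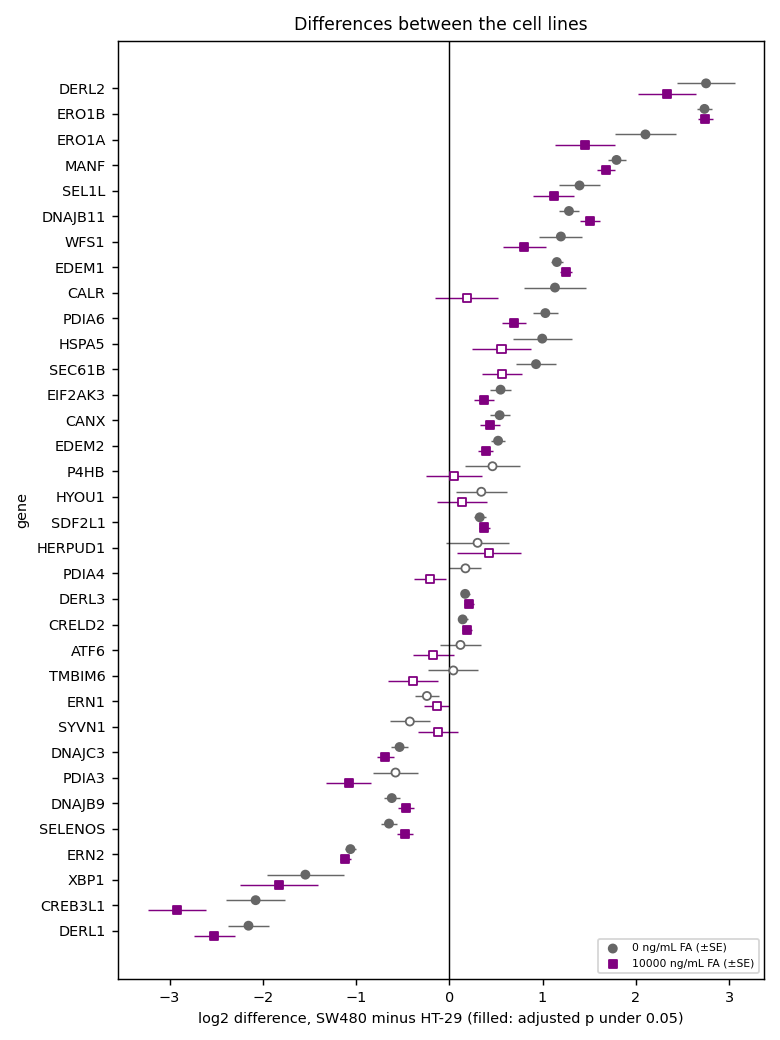
Log2 difference between the lines, SW480 minus HT-29 (x axis), for each of the 34 genes (y axis), in untreated cells (grey circles) and with 10000 ng/mL FA (purple squares). Bars are standard errors and filled symbols passed the test. DERL2 and ERO1B lie farthest to the right in untreated cells (2.75 and 2.74), DERL1, CREB3L1 and XBP1 farthest to the left (-2.15, -2.08 and -1.54), and CALR, HSPA5 and SEC61B are filled in untreated cells alone.

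Among the lumenal and lectin chaperones the differences were modest. HSPA5 (BiP), which binds unfolded chains and holds the stress sensors inactive, read 14.31, 14.47 and 14.00 in untreated HT-29 and 14.95, 14.97 and 15.85 in untreated SW480. The groups did not overlap, and the log2 difference was 1.00 ± 0.31 (SE, adjusted p = 0.0282). Without the untreated HT-29 replicate 3 it was 0.87 and the adjusted p 0.076, and the call was also lost without untreated HT-29 replicate 1 or untreated SW480 replicate 3 and after another quantile normalization (0.90). With FA, HSPA5 read 15.02, 14.80 and 14.46 in HT-29 and 14.73, 15.42 and 15.81 in SW480. These groups overlapped and the difference of 0.56 ± 0.31 did not pass (adjusted p = 0.189). HYOU1, a large HSP70-type chaperone that also exchanges the nucleotide of BiP, ranged from 10.55 to 11.38 in HT-29 and from 10.63 to 11.71 in SW480 and passed in neither comparison (0.34 ± 0.27 and 0.14 ± 0.27), though it was higher in untreated SW480 with array weights or without untreated SW480 replicate 2.

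CALR (calreticulin), the soluble lectin chaperone, read 15.19, 15.77 and 14.32 in untreated HT-29 and 16.22, 15.98 and 16.48 in untreated SW480, a difference of 1.13 ± 0.34 (adjusted p = 0.0213). Treated HT-29 cells read 15.86, 16.38 and 15.56 and treated SW480 cells 15.96, 16.09 and 16.31, and this difference of 0.19 ± 0.34 did not pass (adjusted p = 0.698). The SW480 values for CALR thus lay above all of HT-29 at 0 ng/mL and among them at 10000 ng/mL. Without the array that stood apart the untreated CALR difference was 0.75 (adjusted p = 0.0442). The untreated call was lost without SW480 replicate 1 or replicate 3. CANX (calnexin), the membrane-bound lectin chaperone, read 14.83, 14.89 and 14.58 in untreated HT-29 and 15.36, 15.13 and 15.43 in untreated SW480, and 14.96, 15.03 and 14.89 against 15.27, 15.47 and 15.45 with FA. It was higher in SW480 on every array at both concentrations (0.54 ± 0.11, adjusted p = 0.0025, and 0.44 ± 0.11, adjusted p = 0.00842), though neither call held after another quantile normalization (0.48 and 0.39), nor the treated one after centring (0.35).

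The disulfide enzymes split between the lines. ERO1A and ERO1B are the oxidases that recharge protein disulfide isomerases, and both were higher in SW480. ERO1A, the widely expressed form and a known hypoxia-responsive gene, read 12.14, 12.48 and 11.05 in untreated HT-29 and 14.05, 13.81 and 14.12 in untreated SW480 (2.10 ± 0.32, a 4.30-fold difference, adjusted p = 0.000542). With FA it read 13.08, 12.52 and 12.33 against 14.05, 14.04 and 14.21 (1.46 ± 0.32, 2.75-fold, adjusted p = 0.00516). No HT-29 array reached the lowest SW480 array. Without the array that stood apart the untreated ERO1A difference was 1.68. ERO1B, the form known from pancreas and other secretory tissue, read 4.66, 4.66 and 4.90 in untreated HT-29 and 4.66 on all 3 treated HT-29 arrays, against 7.38, 7.50 and 7.55 in untreated and 7.44, 7.36 and 7.42 in treated SW480. The differences were 2.74 ± 0.08 (adjusted p = 3.44e-09) and 2.75 ± 0.08 (adjusted p = 3.27e-09). The HT-29 values lie near the median over clusters of those arrays, and the treated ones are equal, so that no fold is given.

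Of the protein disulfide isomerases themselves, PDIA6 was higher in SW480 and PDIA3 lay on the other side. PDIA6, which also acts on the IRE1 sensor, read 8.03, 8.22 and 8.01 in untreated HT-29 and 9.20, 8.95 and 9.20 in untreated SW480 (1.03 ± 0.13, adjusted p = 0.000153). With FA it read 8.31, 8.69 and 8.26 against 8.94, 9.20 and 9.20 (0.69 ± 0.13, adjusted p = 0.00204). The gap between the lines was present on every array but the treated call was lost after another quantile normalization (0.28). PDIA3 (ERp57), the isomerase that works with calnexin and calreticulin, read 15.20, 15.42 and 14.22 in untreated HT-29 against 14.29, 14.39 and 14.43 in SW480, a difference of -0.58 ± 0.25 that did not pass (adjusted p = 0.0853) and that was -0.94 (adjusted p = 1.03e-05) without the array that stood apart. Treated cells read 15.48, 15.54 and 15.42 against 14.34, 14.43 and 14.43, and here PDIA3 was lower in SW480 by a difference of -1.08 ± 0.25 (adjusted p = 0.00572). P4HB (PDI), the most general isomerase and also a subunit of collagen prolyl hydroxylase, and PDIA4 (ERp72) differed by 0.05 to 0.46 in size. They passed in neither comparison, though both were higher in untreated SW480 with array weights, a fit that leans on 1 untreated HT-29 array.

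The co-chaperones that carry a J domain, the part that drives the ATPase of BiP, went in both directions. DNAJB11 (ERdj3), which hands substrates to BiP, read 8.63, 8.61 and 8.63 in untreated HT-29 and 8.63 on all treated HT-29 arrays, against 9.74, 10.04 and 9.94 in untreated and 9.90, 10.34 and 10.17 in treated SW480 (1.28 ± 0.11 and 1.51 ± 0.11, adjusted p = 8.27e-06 and 2.52e-06). DNAJC3 (P58IPK), an inhibitor of the PERK kinase, was lower in SW480, with 10.75, 10.76 and 10.59 in untreated HT-29 and 10.08, 10.21 and 10.21 in untreated SW480, and with 11.00, 10.76 and 10.76 against 10.03, 10.22 and 10.21 after FA (-0.53 ± 0.09 and -0.69 ± 0.09, adjusted p = 0.000964 and 0.000181). DNAJB9 (ERdj4), which returns BiP to IRE1, was lower too, at 6.50, 6.40 and 6.40 against 5.80, 5.85 and 5.80 untreated and 6.40, 6.07 and 6.40 against 5.80, 5.87 and 5.80 with FA (-0.62 ± 0.09 and -0.47 ± 0.09, adjusted p = 0.000308 and 0.00187). For all 3 co-chaperones the lines did not overlap on any array.

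MANF stood out among the other lumenal proteins that the response induces. It is a small protein that stabilises BiP with its clients and can be secreted, and it read 7.29, 7.16 and 7.32 in untreated HT-29 against 9.09, 8.92 and 9.14 in untreated SW480 (1.79 ± 0.10, 3.47-fold, adjusted p = 3e-07). The treated arrays read 7.45, 7.48 and 7.32 against 8.92, 9.12 and 9.24 (1.68 ± 0.10, 3.20-fold, adjusted p = 4.72e-07). SDF2L1, a partner of DNAJB11, read 5.86, 5.86 and 5.93 in untreated HT-29 and 6.09, 6.30 and 6.24 in untreated SW480, and 5.86, 5.86 and 5.87 against 6.24, 6.20 and 6.28 with FA (0.33 ± 0.06 and 0.38 ± 0.06, adjusted p = 0.00205 and 0.000853). Both SDF2L1 calls were lost after another quantile normalization (0.085 and 0.070). CRELD2, a protein induced by ER stress, read 5.24, 5.24 and 5.38 in untreated and 5.24 on all treated HT-29 arrays, against 5.43 on all 6 SW480 arrays. Its differences of 0.14 ± 0.05 (adjusted p = 0.0496) and 0.19 ± 0.05 (adjusted p = 0.0152) rest on these equal values, and the untreated call was lost in 11 of the 12 fits that left out an array, all but the one without untreated HT-29 replicate 3. After another quantile normalization CRELD2 differed by 0.01 untreated and by -0.05 with FA, and centring lost both calls (0.15 and 0.10).

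The sensors and transcription factors were mostly lower in SW480 or did not differ. XBP1, whose messenger RNA is spliced by IRE1 to give the active factor, read 10.48, 10.48 and 8.72 in untreated HT-29 and 7.99, 8.82 and 8.24 in untreated SW480. These groups overlapped at the array that stood apart, and the difference was -1.54 ± 0.42 (adjusted p = 0.0136), or -2.13 (adjusted p = 3.62e-05) without that array. The call was lost without SW480 0 ng/mL replicate 1. Treated cells read 10.21, 9.96 and 10.10 against 8.24, 8.24 and 8.31, did not overlap and differed by -1.83 ± 0.42 (3.55-fold lower, adjusted p = 0.0058). Spliced and unspliced XBP1 were not told apart by the cluster value.

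ERN2 (IRE1β), the form of the sensor known from mucus-secreting intestinal and airway epithelium, read 5.44, 5.39 and 5.34 in untreated HT-29 and 4.29, 4.41 and 4.29 in untreated SW480 (-1.06 ± 0.06, adjusted p = 3.12e-07). With FA it read 5.34, 5.44 and 5.44 against 4.29 on all 3 SW480 arrays (-1.12 ± 0.06, adjusted p = 2.13e-07). The SW480 values for ERN2 lie under the median over clusters of each array, and the treated ones are equal. ERN1 (IRE1α), the widespread form, ranged from 5.76 to 6.18 in HT-29 and from 5.56 to 5.92 in SW480, with overlapping groups and no call at either concentration (-0.24 ± 0.13 and -0.13 ± 0.13). Without the array that stood apart ERN1 was lower in untreated SW480 (-0.36, adjusted p = 0.0377), as it was with array weights and, at both concentrations, after another quantile normalization. CREB3L1 (OASIS), a membrane-bound factor that is cut free like ATF6 and known for secretory and matrix genes, read 6.85, 7.36 and 6.13 in untreated HT-29 against 4.69, 4.69 and 4.73 in SW480 (-2.08 ± 0.32, adjusted p = 0.000488). After FA it read 7.14, 8.24 and 7.45 against 4.69 on all 3 arrays (-2.92 ± 0.32, adjusted p = 4.63e-05). The SW480 arrays hardly varied for CREB3L1, from 4.69 to 4.73, near the median over clusters of each array, while HT-29 spread from 6.13 to 8.24.

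EIF2AK3 (PERK), the kinase that slows translation, was the sensor on the higher side in SW480, at 6.93, 6.93 and 6.48 against 7.34, 7.30 and 7.35 untreated (0.55 ± 0.11, adjusted p = 0.00287). With FA it read 7.08, 6.93 and 6.93 against 7.36, 7.35 and 7.35 (0.37 ± 0.11, adjusted p = 0.0222), a call lost without treated HT-29 replicate 2 or 3, without any 1 of the treated SW480 arrays, after another quantile normalization (0.03) and after centring (0.28). ATF6, the sensor that is itself a transcription factor, ranged from 8.83 to 9.96 in HT-29 and from 9.53 to 9.83 in SW480 and did not pass. Its untreated difference of 0.12 was -0.20 without the array that stood apart (adjusted p = 0.0505). ATF6 was lower in untreated SW480 with array weights, and at both concentrations after another quantile normalization.

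The ERAD genes showed the widest range. DERL1 and DERL2 are related membrane proteins that pull substrates out of the ER, and their differences had opposite signs. DERL1 read 10.85, 10.85 and 9.90 in untreated HT-29 and 8.39, 8.34 and 8.41 in untreated SW480 (-2.15 ± 0.22, 4.45-fold lower, adjusted p = 2.81e-05). With FA it read 11.11, 10.85 and 10.85 against 8.40, 8.40 and 8.45 (-2.52 ± 0.22, 5.74-fold lower, adjusted p = 8.9e-06). DERL2 read 8.17, 8.10 and 6.72 in untreated HT-29 and 10.46, 10.41 and 10.38 in untreated SW480 (2.75 ± 0.31, 6.74-fold higher, adjusted p = 6.33e-05). Treated cells read 8.17, 8.17 and 8.06 against 10.39, 10.46 and 10.56 (2.34 ± 0.31, 5.05-fold higher, adjusted p = 0.000199). The lines were apart on every array for both genes. Without the array that stood apart the untreated differences were -2.47 for DERL1 and 2.28 for DERL2. DERL3, the third of the family, known from plasma cells and other secretory cells, read 3.97, 3.97 and 4.09 in untreated and 3.97 on all treated HT-29 arrays and 4.18 on all 6 SW480 arrays, under the median of all clusters of each array. Its differences of 0.17 ± 0.05 (adjusted p = 0.0201) and 0.21 ± 0.05 (adjusted p = 0.00718) rest on equal values, and the untreated call was lost without untreated HT-29 replicate 1 or 2 or untreated SW480 replicate 1. Centring lost both DERL3 calls (0.18 and 0.12) and another quantile normalization the treated one (0.16).

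SEL1L, the adaptor that holds the ubiquitin ligase of ERAD together, read 8.63, 8.63 and 8.08 in untreated HT-29 against 9.88, 9.48 and 10.17 in untreated SW480, and 8.90, 8.77 and 8.63 against 9.60, 9.87 and 10.19 with FA (1.40 ± 0.22 and 1.12 ± 0.22, adjusted p = 0.000566 and 0.00229). EDEM1, which marks misfolded glycoproteins by trimming mannose, read 6.53, 6.53 and 6.48 against 7.70, 7.55 and 7.75 untreated and 6.57, 6.53 and 6.50 against 7.75, 7.72 and 7.88 with FA (1.15 ± 0.07 and 1.25 ± 0.07, adjusted p = 5.71e-07 and 3.17e-07). EDEM2, which starts that trimming, read 6.62, 6.78 and 6.58 against 7.15, 7.10 and 7.30 untreated and 6.78, 6.78 and 6.64 against 7.07, 7.15 and 7.15 with FA (0.52 ± 0.08 and 0.39 ± 0.08, adjusted p = 0.000426 and 0.00273). All these groups were separate, with SW480 the higher line. Both EDEM2 calls were lost after another quantile normalization (0.18 and 0.054) and the treated one after centring (0.30). SYVN1 (HRD1), the ligase itself, passed in neither comparison. It ranged from 7.50 to 8.28 in HT-29 and from 7.12 to 8.03 in SW480, with differences of -0.42 ± 0.21 and -0.12 ± 0.21. Without the array that stood apart it was lower in untreated SW480 (-0.65, adjusted p = 0.0178), as it was with array weights and, at both concentrations, after another quantile normalization. HERPUD1, a scaffold of the same ligase, did not pass either (0.30 ± 0.34 and 0.43 ± 0.34).

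SELENOS, a selenoprotein that links derlins to the extracting ATPase, was lower in SW480, at 7.52, 7.50 and 7.74 against 6.82, 7.00 and 7.00 untreated and 7.60, 7.45 and 7.43 against 7.00, 7.06 and 7.00 with FA (-0.65 ± 0.08 and -0.47 ± 0.08, adjusted p = 0.000176 and 0.00138). SEC61B, a subunit of the channel through which proteins enter the ER, read 6.73, 6.96 and 6.06 against 7.39, 7.52 and 7.63 untreated (0.93 ± 0.21, adjusted p = 0.00581) and 7.36, 6.95 and 6.90 against 7.50, 7.65 and 7.75 with FA, where 0.56 ± 0.21 did not pass (adjusted p = 0.0593) though the groups did not overlap. The treated SEC61B difference passed without untreated HT-29 replicate 2 or 3, without treated HT-29 replicate 1, with array weights and among clusters with 1 symbol. WFS1 (wolframin), a membrane protein of ER calcium balance, was higher in SW480, at 6.38, 6.57 and 5.62 against 7.56, 7.13 and 7.47 untreated and 6.44, 6.62 and 6.46 against 7.43, 7.03 and 7.47 with FA (1.20 ± 0.23 and 0.80 ± 0.23, adjusted p = 0.00223 and 0.0193). The treated WFS1 call was lost without treated replicate 1 or 3 of either line, after another quantile normalization (0.45) and after centring (0.71). Without the array that stood apart the untreated differences were 0.67 for SEC61B and 0.91 for WFS1. TMBIM6 (Bax inhibitor 1), an ER membrane protein of calcium release, passed in neither comparison (0.04 ± 0.27 and -0.39 ± 0.27), but was lower in both when its clusters were averaged.

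**Figure D3:**
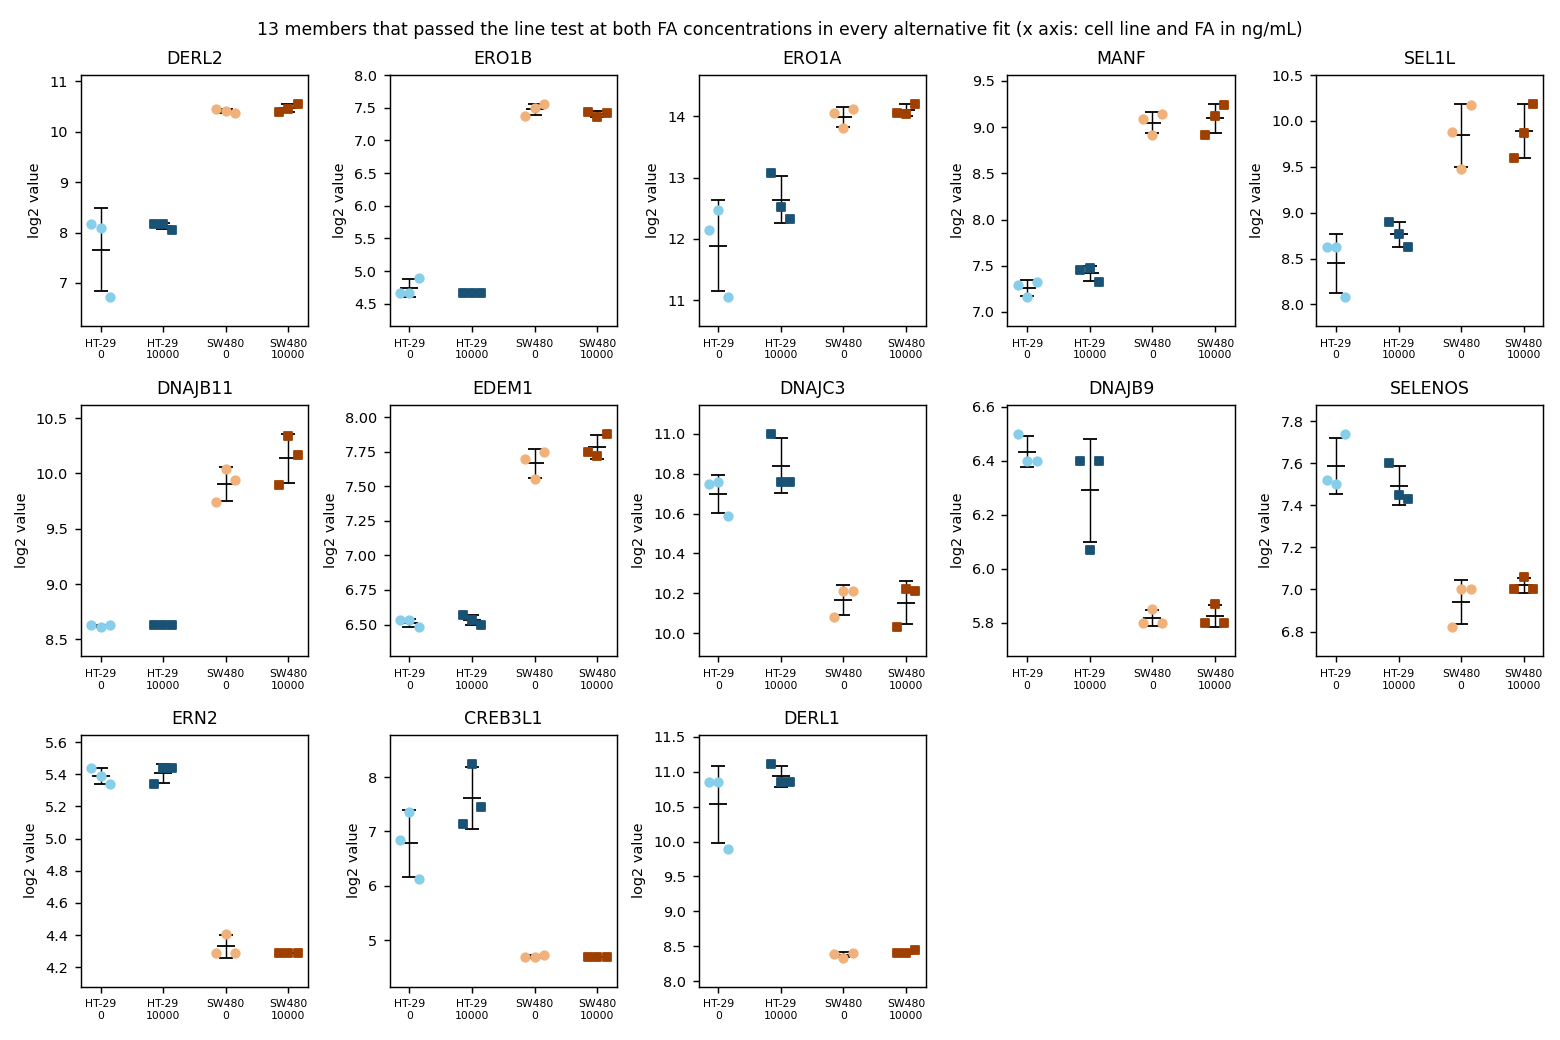
Log2 values (y axis, scaled per panel) of the 13 genes whose difference between the lines passed at both FA concentrations in every alternative fit and scaling, by cell line and FA concentration in ng/mL (x axis). Points are the 3 arrays of a group, and the horizontal mark and bar are mean and SD. The points of the lines do not overlap in any panel, and untreated HT-29 replicate 3 is the low point for DERL2, ERO1A and DERL1.

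Of the 7 genes with an exact ERSE match in the promoter window, 6 were higher in untreated SW480 (HSPA5, CALR, CANX, CRELD2, ERO1B and PDIA6) and XBP1 was lower. Of all clusters 24.7% were higher, and 38.4% of those with 1 symbol. CANX, CRELD2 and HSPA5 lost this call after another quantile normalization. With FA 4 of the 7 were higher, against 26.0% of all clusters and 38.6% of those with 1 symbol. XBP1 was lower, against 15.1% and 18.0%, and HSPA5 and CALR did not pass. The treated calls of CANX, CRELD2 and PDIA6 were lost after another quantile normalization, and those of CANX and CRELD2 also after centring. HSPA5 and XBP1, whose sites both run with the gene, were called in opposite directions in untreated cells, though neither call held in every fit. Whether the element bears on any of these differences was not tested.

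The effect of FA was then followed in each line. In HT-29 0 of the 34 genes passed the test (smallest adjusted p = 0.587), as did 0% of all clusters. At an unadjusted p under 0.05 there were 6 genes of the set and 3671 clusters. The mean was higher with FA for 26 genes and lower for 8, against 30.4% of all clusters higher and 67.9% lower. The median log2 difference was 0.20, against -0.08 over all clusters. The criteria of the study, a fold change of 1.5 or more together with an unadjusted p no higher than 0.05, were met by 4 genes, all higher with FA, and by 1.36% of all clusters. These were CALR (0.84 ± 0.34), CREB3L1 (0.83 ± 0.32), ERO1A (0.75 ± 0.32) and TMBIM6 (0.67 ± 0.27). The untreated groups of all 4 include the array that stood apart as their lowest value. TMBIM6, for example, read 14.15, 14.63 and 13.56 untreated and 14.83, 14.91 and 14.61 with FA. This gene has 2 clusters, and with its clusters averaged the difference was 0.17 ± 0.10, against 0.67 ± 0.27 for the cluster read here.

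Without that array the median of the set was 0.06, against -0.005 over all clusters, and 24 genes were higher, against 40.8% of all clusters. Of the set 1 gene reached an unadjusted p under 0.05 and 0 met the criteria. Of the 67528 clusters 2827 and 477 did so. CALR then differed by 0.45, CREB3L1 by 0.51, ERO1A by 0.33 and TMBIM6 by 0.39. P4HB, which read 11.06, 11.22 and 9.86 untreated and 11.28, 11.43 and 11.16 with FA, went from 0.58 ± 0.30 to 0.15. PDIA3 went from 0.53 ± 0.25 to 0.17 and DERL2 from 0.47 ± 0.31 to 0.00. XBP1 changed sign, from 0.20 ± 0.42 to -0.39.

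The treated and untreated arrays of HT-29 did not overlap for 2 genes, both higher with FA, against 1.41% of all clusters higher and 3.84% lower without overlap. PDIA4, an isomerase with several thioredoxin domains, read 10.56, 10.71 and 10.75 untreated and 10.85, 11.34 and 10.85 with FA (0.34 ± 0.17). PDIA6 read 8.03, 8.22 and 8.01 untreated and 8.31, 8.69 and 8.26 with FA (0.33 ± 0.13). These differences hardly moved without the array that stood apart (0.38 and 0.30), and their adjusted p was 0.587 each with all arrays. ERN1 lay on the other side, at 6.11, 6.18 and 5.79 untreated and 6.10, 5.76 and 5.78 with FA (-0.15 ± 0.13).

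**Figure D4:**
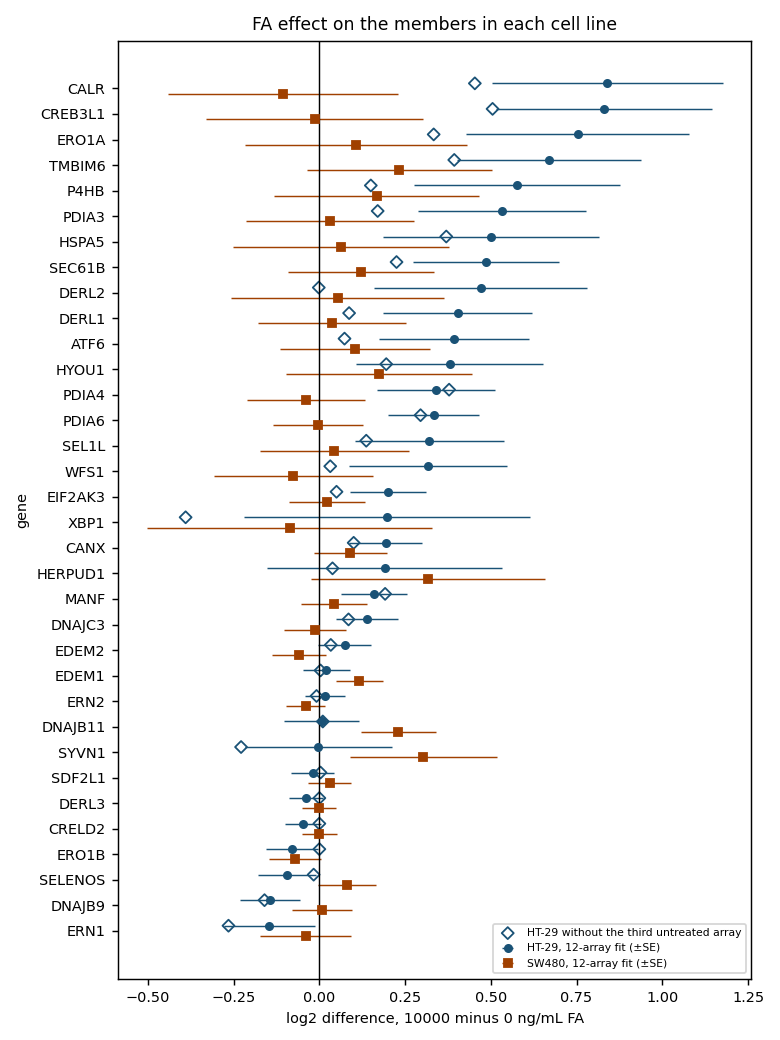
FA effect, the log2 difference of 10000 minus 0 ng/mL (x axis), for each of the 34 genes (y axis, ordered by the HT-29 effect). Filled circles are HT-29, open diamonds HT-29 without untreated replicate 3 and squares SW480, and bars are standard errors. CALR and CREB3L1 lie highest in HT-29 (0.84 and 0.83) and move to 0.45 and 0.51 without the array, XBP1 moves from 0.20 to -0.39, and the squares stay between -0.11 and 0.32.

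In SW480 0 of the 34 genes passed (0.00592% of all clusters did, 4 in number). At an unadjusted p under 0.05 there were 0 genes of the set and 2739 clusters. The criteria of the study were met by 0 genes and by 1.04% of all clusters. No gene of the set had groups without overlap, against 2.99% of clusters higher and 4.85% lower. The mean was higher with FA for 21 genes and lower for 11, against 39% of all clusters higher and 57.7% lower. The median was 0.03, against -0.02 over all clusters. HERPUD1, a known target of the response, read 9.51, 9.71 and 9.96 untreated and 9.51, 10.06 and 10.56 with FA (0.32 ± 0.34), a difference that was 0.06 without treated replicate 3 and 0.58 without treated replicate 1. SYVN1 read 7.73, 7.12 and 7.73 untreated and 7.73, 7.73 and 8.03 with FA (0.30 ± 0.21). TMBIM6 read 14.37, 13.72 and 14.38 untreated and 14.29, 14.23 and 14.65 with FA (0.23 ± 0.27). HYOU1 read 11.53, 10.63 and 11.63 untreated and 11.13, 11.47 and 11.71 with FA (0.17 ± 0.27). P4HB read 11.33, 10.89 and 11.31 untreated and 11.31, 11.33 and 11.39 with FA (0.17 ± 0.30). Untreated replicate 2 was the low array for SYVN1, TMBIM6, HYOU1 and P4HB, but not for HERPUD1. Without that array the differences were 0.10 for SYVN1, 0.015 for TMBIM6, 0.023 for P4HB and -0.14 for HYOU1. For DNAJB11 the difference was 0.23 ± 0.11 and for CALR -0.11 ± 0.34.

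For the difference between the lines in the FA effect, 0 of the 34 genes passed the limma test (smallest adjusted p = 0.939), as did 0% of all clusters. At an unadjusted p under 0.05 there were 0 genes of the set and 2222 clusters. The effect in SW480 minus that in HT-29 had a median of -0.19 over the set and 0.05 over all clusters, and -0.03 and -0.01 without the array that stood apart. With all arrays the difference was widest for CALR (-0.95 ± 0.48), CREB3L1 (-0.84 ± 0.45), ERO1A (-0.65 ± 0.46) and PDIA3 (-0.50 ± 0.35), followed by HSPA5 and TMBIM6 (-0.44 each, ± 0.45 and ± 0.38). Without the array that stood apart these became -0.56 for CALR, -0.52 for CREB3L1, -0.23 for ERO1A, -0.14 for PDIA3, -0.31 for HSPA5 and -0.16 for TMBIM6, while SYVN1, at 0.53, came between CALR and CREB3L1 in size.

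Further genes of the same pathways were read from lists that exclude the set. None of these 11 lists had a gene past the test for FA in either line. Counts between the lines are read against the 38.4% higher and 19.4% lower among clusters with 1 symbol. Between the untreated lines, lumenal chaperones and co-chaperones had 11 of 14 measured genes higher in SW480 and 2 lower (median 0.73). They include FKBP7, a prolyl isomerase of the ER (2.03 ± 0.11, adjusted p = 3.19e-07), DNAJC1, a membrane J protein (1.27 ± 0.13, adjusted p = 2.95e-05), and SERPINH1, the collagen chaperone (0.74 ± 0.08, adjusted p = 4.18e-05). Of the other ERAD genes 14 of 20 were higher and 2 lower (median 0.82), with the ubiquitin-conjugating enzymes UBE2G2 (1.16 ± 0.07) and UBE2J2 (0.81 ± 0.04). Glycan trimming and lectin genes had 7 of 13 higher and 0 lower (median 0.99), with the glucosidase MOGS (1.03 ± 0.10) and the cargo receptor subunit MCFD2 (1.13 ± 0.06).

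In untreated cells the other lists had a smaller share of genes higher in SW480. Of 17 further disulfide isomerases 6 were higher and 2 lower (median 0.35), the lower ones led by AGR2, an isomerase needed for mucin folding in intestinal cells (-3.47 ± 0.17, adjusted p = 1.4e-07), and its relative AGR3 (-1.27 ± 0.10). Oligosaccharyltransferase genes had 4 of 9 higher and 2 lower (median 0.44), with the catalytic subunit STT3B higher (2.88 ± 0.16) and the oxidoreductase subunit TUSC3 lower (-1.06 ± 0.07). The translocon and signal peptidase had 5 of 16 higher and 3 lower (median 0.20), close to those shares, and ER calcium genes 6 of 12 higher and 1 lower (0.23), with the calcium channel ITPR2 (2.34 ± 0.24). Of 18 genes of export from the ER 8 were higher and 1 lower (0.15), of 6 ER-phagy receptors 3 and 1 (0.68), and of 14 sensors, proteases and transducers 5 and 3 (0.05), with MBTPS2, the protease that cuts ATF6 free, higher (2.47 ± 0.27). With 10000 ng/mL FA the chaperones had 11 higher and 2 lower, ERAD 12 and 2 and the glycan genes 7 and 1, against 38.6% and 18% of clusters with 1 symbol. The translocon list had 4 and 6 (median -0.08), the sensor list 6 and 3 (-0.06) and the export list 5 and 3. Disulfide isomerases had 6 and 2, oligosaccharyltransferase 3 and 2, calcium genes 6 and 2 and ER-phagy receptors 3 and 1. The PERK and ATF4 arm, described further down, had 6 and 6. The lists were not read under the other scalings.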

How the data were processed

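The authors hybridised RNA of 12 samples to Human Transcriptome Array 2.0 chips and made the deposited log2 values with SST-RMA (background correction, normalization and summary per transcript cluster) in Transcriptome Analysis Console 4.0. The values were used as deposited: 67528 clusters, 0 missing values and 0 columns left aside. The genome build of the clusters is not given in the sources used here. Genes were named from the platform table, in which 23781 clusters carry 1 symbol, 1543 carry several and 42204 carry none.

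The means of the 4 groups were fitted with limma 3.58.1 in R 4.3.3 with moderated variances and 8 residual degrees of freedom. Benjamini-Hochberg adjustment ran over all clusters, with a threshold of 0.05. The criteria of the study were applied to the same fit. The fit was tested on simulated data. The number of arrays, 3 per group, limits the precision. Values on every array are given for genes past the test and for the 6 with the largest difference in a contrast, and other genes by range. From the pathway lists at most 3 genes per contrast with the smallest p are named. The set, the lists and the tests were chosen with earlier results of these data known.

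Alternatives were separate fits of the lines, array weights, a robust fit with a variance trend, the replicate number as a block, a filter that drops the lowest 33.3% of clusters, another quantile normalization, median centring, clusters with 1 symbol only, averaging a gene's clusters, the criteria of the study and leaving out each array. HT-29 alone without its untreated replicate 3, and leaving out genes with equal values, were added after seeing the data. Promoter letters come from RefSeq (GRCh38.p14) and motif matches were counted without a test. Plots used Python 3.11.15 and matplotlib 3.10.9.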

Additional observations from a re-analysis of the deposited data

How the results depend on the processing

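For FA in HT-29 and in SW480 and for their difference, 0 genes of the set passed under every setting but 1: with array weights, whose estimate did not converge, 4 passed in HT-29 (CALR, TMBIM6, PDIA3 and PDIA6, against 1.98% of clusters higher). The criteria of the study gave 4 in HT-29. The HT-29 median of 0.20 became 0.35 with each array centred on its median and 0.062 when HT-29 was fitted by itself without untreated replicate 3. The shift of all clusters in HT-29 was 0.15 under centring and 0.10 under another quantile normalization. HYOU1 in SW480 turned from 0.17 to -0.016 with array weights, and ranged from -0.14 (without SW480 0 ng/mL replicate 2) to 0.36 with an array left out.

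Between the untreated lines the count lower in SW480 rose from 7 to 11 with array weights, while the share of all clusters rose from 18% to 29.3%. It also rose to 11 with another quantile normalization (22.6% of all clusters), which gave a median of 0.048. At 10000 ng/mL FA the count higher in SW480 fell from 15 (26% of all clusters) to 7 with another quantile normalization (median 0.027, 21.8% of all clusters). It fell to 9 with centring (21.2%) and to 9 under the criteria of the study, which 11836 of the 67528 clusters met on that side. CRELD2 turned to -0.046 there under another quantile normalization. Leaving out genes with equal values left 14 higher and 5 lower untreated and 11 and 6 with FA, a setting for which no share of all clusters was computed. The cause of these changes was not tested.

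Leaving out each array in turn gave 0 to 0 calls for FA in HT-29 (median 0.062 to 0.32), 0 to 0 in SW480 (0.01 to 0.07) and 0 to 0 for the difference (-0.31 to -0.029). Between the untreated lines it gave 15 to 18 higher, 6 to 10 lower and a median of 0.21 to 0.44, and with FA 13 to 16 higher, 8 to 8 lower and a median of 0.18 to 0.28. Over all clusters 21.8% to 33.6% were higher and 13.8% to 20.3% lower untreated, and 21.9% to 34.6% and 12% to 22.4% with FA.

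Replicate numbers did not pair the samples: deviations of samples with the same number correlated at -0.07, 0.16 and -0.02 in HT-29 and -0.08, 0.01 and 0.40 in SW480, and 2 of 6 samples per line correlated best with their own number. With the replicate block 0 genes passed for FA, 17 were higher and 7 lower between the untreated lines (CRELD2 was lost), and 15 and 8 with FA. Over all clusters the shares in that fit were 23.5% and 16.7% untreated and 24.6% and 14.1% with FA.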

Other observations

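The PERK and ATF4 arm, which raises amino acid supply and the stress factor DDIT3 (CHOP) is given here for the direction of its FA differences, a pattern noticed after the values were seen. None of its 15 measured genes passed the test in limma. In HT-29 1 had a higher mean with FA and 14 a lower one (median -0.22), where 67.9% of all clusters were lower, and in SW480 12 and 3 (median 0.08), where 39.0% of all clusters were higher. The difference between the lines was positive for all 15 (median 0.35, smallest adjusted p = 0.939), as for 61.4% of all clusters. Without untreated HT-29 replicate 3 the HT-29 split was 2 and 13 (median -0.24, with 51.9% of all clusters lower), and the difference was positive for 13 and negative for 2 (median 0.41, with 45.2% of all clusters positive). DDIT3 differed by -0.71 ± 0.32 in HT-29, or -0.44 without that array, and by 0.59 ± 0.32 in SW480. STC2, a secreted glycoprotein induced in ER stress, differed by 0.72 ± 0.16 in SW480. Between the untreated lines 4 of the 15 genes were higher in SW480 and 8 lower, with STC2 (4.09 ± 0.16, adjusted p = 2.8e-08) and the lipoprotein receptor VLDLR (1.98 ± 0.06, adjusted p = 8.83e-09) higher and CEBPG, a partner of ATF4, lower (-1.05 ± 0.10, adjusted p = 1.99e-05).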
